A study of Mus musculus with 3 samples.

Results

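The 9 genes described here belong to the B cell receptor and the B lineage: Cd79a, Cd79b, Blk, Cd22, Cr2, Ms4a1, Fcrla, Spib and Ebf1. They were chosen by symbol, from probes that carry exactly 1 gene symbol in the platform annotation, and all 9 had a value among 6795 measured genes. Mouse thymocyte RNA was compared on 3 spotted 2-colour arrays. Each array carried total RNA of CD69hi thymocytes, purified from wild-type B6 mice, beside RNA of unseparated thymocytes from Zap70-/- mice, which lack a kinase of T cell receptor (TCR) signalling. The sample titles call the partner RNA CD69lo, whereas the descriptions and source names give Zap70-/-, and how the titles' term relates to these cells is not stated. The CD69hi RNA was labelled with Cy3 on arrays 1 and 2 and with Cy5 on array 3. Age and number of the mice were not given in the sources used here. Nor do the labels tell whether the arrays stem from separate animals, so each p-value reflects the spread among the 3 arrays alone, which may be technical. Genotype and purification differ together between the 2 RNAs and cannot be told apart.

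The B cell receptor is a membrane immunoglobulin held by the heterodimer of CD79A and CD79B, whose cytoplasmic tails carry the tyrosine motifs that start the signal. Src family kinases, among them BLK, phosphorylate these motifs, while CD22 damps the signal and the complement receptor CR2 lowers the threshold for it. The thymus makes T cells, but it also holds a small resident population of B cells, so transcripts of this lineage in thymus RNA can come from a minor cell type. Several of these genes are also used outside the B lineage: Spib in plasmacytoid dendritic cells, Blk in some gamma delta T cells, Ebf1 in stroma and Cr2 in follicular dendritic cells.

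All values are log2 ratios of CD69hi over Zap70-/- RNA, so 1 stands for a 2-fold higher signal in CD69hi RNA and -1 for a 2-fold higher signal in Zap70-/- RNA. The log base of the deposited ratios, not given in the sources used here, was taken as 2. The direction was set by the labelled dyes, reading each deposited value as Cy5 against Cy3, and is likely, although the submitters do not state it. Before the values of arrays 1 and 2 were turned, array 3 had a Pearson r of -0.25 with array 1 and of -0.40 with array 2 across probes. In this reading the recombinase gene Rag1, a marker of immature thymocytes, was lower in CD69hi RNA (log2 ratio -1.19 ± 0.36, SD, n = 3, limma adjusted p = 0.035), a call lost on leaving out array 1 (adjusted p = 0.13) or array 2 (adjusted p = 0.18) and on scaling the arrays (adjusted p = 0.072). With the opposite reading every sign below would turn. A ratio holds no level, so neither the presence of B cells nor that of thymocytes could be checked from it, and fewer cells of a type cannot be told apart from less RNA per cell.

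As sequence context, the stretch before the transcription start is printed for the gene with the highest ratio of the 9, Cd79a, and for the one nearest to 0, Spib. RefSeq promoter entries (GRCm38.p6) were found for 6 of the 9 genes, and the printed stretches hold no base that the RefSeq gene transcribes. The Cd79a stretch is chr7:24897247-24897496 (+ strand, 250 bases) and the Spib stretch chr7:44532088-44532321 (- strand, 234 bases), both written 5′ to 3′. Capitals mark GGAA, the core bound by ETS factors such as Spi-B, CAGNTG, an E-box bound by E proteins, and CCCNNGGG, the core of sites bound by EBF1, each on either strand.
Cd79a: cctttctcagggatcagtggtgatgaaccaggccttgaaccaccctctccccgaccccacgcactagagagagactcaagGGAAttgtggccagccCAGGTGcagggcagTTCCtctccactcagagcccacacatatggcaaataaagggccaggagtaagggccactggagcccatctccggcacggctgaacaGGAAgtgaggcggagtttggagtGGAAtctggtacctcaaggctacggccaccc
Spib: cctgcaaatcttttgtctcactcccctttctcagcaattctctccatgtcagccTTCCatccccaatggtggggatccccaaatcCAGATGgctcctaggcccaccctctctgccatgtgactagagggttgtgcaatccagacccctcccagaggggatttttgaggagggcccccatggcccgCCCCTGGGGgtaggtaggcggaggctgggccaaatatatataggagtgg
Positions are counted from the start site of the promoter entry. For Spib that site lies past the printed stretch, after 16 more bases that fall inside the RefSeq gene. The Cd79a stretch held GGAA or its reverse complement at -170, -140, -54 and -31 and an E-box at -154, and no CCCNNGGG. The Spib stretch held GGAA on the other strand at -196, an E-box at -165 and a pair of overlapping CCCNNGGG matches at -65 and -64. Apart from this pair no matches overlapped. Among the 250 bases before 32817 RefSeq starts, GGAA was present in 93.4%, the E-box in 44.8% and CCCNNGGG in 11.8%. The octamer ATGCAAAT, searched as well and present in 1.6%, was in neither stretch. These matches describe letters only: a match need not be a bound site, and a site with other letters would not be marked.

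None of the 9 genes passed the test: 0 were called by limma with Benjamini-Hochberg adjustment over 8905 features at a threshold of 0.05, where 6.94% of all features were called. At an unadjusted p of at most 0.05, 3 of the 9 passed (Cd79a, Fcrla and Ms4a1), against 23.4% of all features. The same 3 genes lay above 0 on every array, as did 24.3% of all features, and 0 of the 9 lay below 0 on every array, against 22.7%. The other 6 took both signs among the arrays, against 52.8% of all features. Mean ratios were above 0 for 7 genes (51.4% of all features) and below 0 for 2. Their median was 0.31 over the 9, and that of all features was 0.01. Most means thus lay above 0, but the 9 did not all share a direction, and no gene passed the test. By array, the 9 had medians of 0.17, 0.28 and 0.28.

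**Figure D1:**
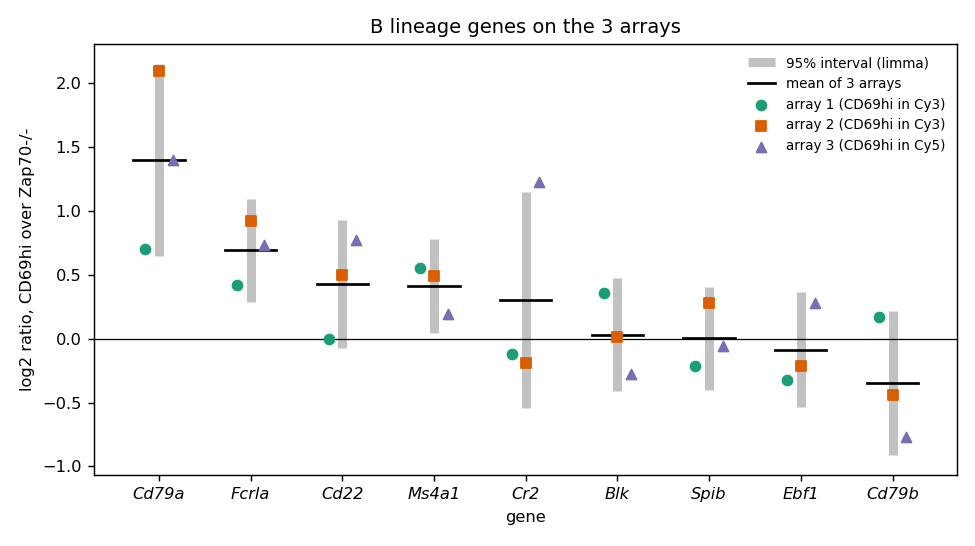
Log2 ratio of CD69hi over Zap70-/- RNA (vertical axis) for the 9 B lineage genes (horizontal axis), with a point for each array, a line at the mean of 3 arrays and a bar for limma's 95% interval, which is not adjusted for the number of genes. Cd79a, Fcrla and Ms4a1 lie above 0 on every array, and the other 6 genes have points on either side of 0.

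The receptor's signalling chains gave unlike values. Cd79a, which encodes the Ig-alpha chain, had log2 ratios of 0.70 on array 1, 2.10 on array 2 and 1.40 on array 3. All 3 lay above 0, but the highest and the lowest differed by 1.39. The mean was 1.40 ± 0.70 (SD, n = 3), a 2.64-fold higher signal in CD69hi RNA with a 95% interval from 0.65 to 2.15 on the log2 scale, and it missed the threshold (limma adjusted p = 0.062). It passed when features with an absolute ratio above 4 were left out of the fit (adjusted p = 0.048, where 7.95% of features passed) but not with the arrays scaled (adjusted p = 0.0503), and leaving out array 1, 2 or 3 gave adjusted p-values of 0.052, 0.20 and 0.12. A mean of at least 1 was reached by 1 of the 9 genes, Cd79a, and by 3.63% of all features.

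Cd79b, which encodes the partner chain Ig-beta, had log2 ratios of 0.17, -0.44 and -0.77 on arrays 1 to 3. Arrays 2 and 3 lay below 0 and array 1 above it. The mean was -0.35 ± 0.48 (SD, n = 3, limma adjusted p = 0.40), and its 95% interval ran from -0.91 to 0.22. The ratio of Cd79a exceeded that of Cd79b by 0.54, 2.54 and 2.17 on the 3 arrays, a mean difference of 1.75 ± 1.07 (SD, n = 3). Cd79a was the higher of the pair on every array, and the exact two-sided sign permutation test gave p = 0.25, the smallest that 3 arrays allow. Each chain was read by 1 probe, so a difference between the probes and one between the transcripts cannot be told apart.

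Blk, the Src family kinase of the receptor, had log2 ratios of 0.36, 0.015 and -0.27 on arrays 1 to 3 and a mean of 0.03 ± 0.32 (SD, n = 3, limma adjusted p = 0.92). Its 3 values lay on either side of 0, and the 95% interval from -0.41 to 0.48 holds differences up to 1.39-fold in favour of CD69hi RNA.

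Among the coreceptors and surface proteins, Cd22, the inhibitory sialic acid-binding lectin that recruits a tyrosine phosphatase, had log2 ratios of -0.001, 0.50 and 0.78. Array 1 lay just under 0 and the other two above it. The mean was 0.43 ± 0.39 (SD, n = 3, limma adjusted p = 0.27), with a 95% interval from -0.08 to 0.93. Cr2, which encodes the complement receptor CD21, had log2 ratios of -0.12, -0.19 and 1.23. Array 3, the array with CD69hi RNA in Cy5, stood apart from arrays 1 and 2 by 1.39. Its SD of 0.80 was the widest of the 9, and 5.92% of all features had a larger one. The mean of Cr2 was 0.31 (limma adjusted p = 0.63), and without array 3 it was -0.16 (adjusted p = 0.31). With a dye term in the fit, which leaves 1 residual degree of freedom, the ratio of Cr2 was 0.54 (adjusted p = 0.051).

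Ms4a1, which encodes CD20, had log2 ratios of 0.55, 0.49 and 0.19 as the average of its 2 probes, with a mean of 0.41 ± 0.19 (SD, n = 3, limma adjusted p = 0.18) and a 95% interval from 0.04 to 0.78. The probes did not behave alike. The first probe gave 0.39, 0.04 and -0.81 (mean -0.13, limma adjusted p = 0.81 when every probe was fitted singly). The second gave 0.72, 0.95 and 1.19 (mean 0.95 ± 0.24, SD, n = 3) and passed in that fit (adjusted p = 0.039), where 6.61% of 9596 probes passed. The probes differed by 0.33 on array 1, 0.92 on array 2 and 2.00 on array 3. A spotted cDNA can bind transcripts of related genes, and of the Ms4a relatives measured Ms4a4b was 11.1-fold higher in CD69hi RNA (log2 ratio 3.47 ± 0.29, SD, n = 3, adjusted p = 0.0051). Its part in either Ms4a1 probe was not tested. Ms4a4b was named after its value was seen.

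**Figure D2:**
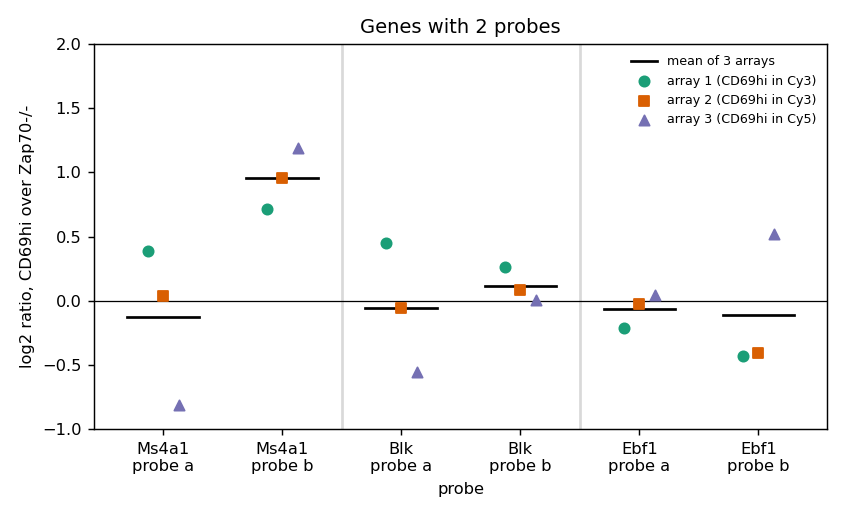
Log2 ratio of CD69hi over Zap70-/- RNA (vertical axis) for each probe (horizontal axis) of the 3 genes with 2 probes, with a point for each array and a line at the mean. The Ms4a1 probes are 1.08 apart in their means, those of Blk 0.17 and those of Ebf1 0.04.

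Fcrla, an intracellular relative of the Fc receptors found in B cells, had log2 ratios of 0.42, 0.92 and 0.73. All 3 were above 0 and close together. The mean was 0.69 ± 0.25 (SD, n = 3), or 1.62-fold, with a 95% interval from 0.29 to 1.09, and it missed the threshold (limma adjusted p = 0.075, with 0.17, 0.49 and 0.10 without arrays 1, 2 and 3).

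The lineage transcription factors lay near 0. Ebf1, which commits progenitors to the B lineage, had log2 ratios of -0.32, -0.21 and 0.28 and a mean of -0.09 ± 0.32 (SD, n = 3, limma adjusted p = 0.80). Arrays 1 and 2 were below 0 and array 3 above it. Its probes gave means of -0.06 and -0.11, and the second probe took -0.43, -0.40 and 0.52 on the arrays. Spib, the ETS factor Spi-B, had log2 ratios of -0.21, 0.28 and -0.06 and a mean of 0.004 ± 0.25 (SD, n = 3, limma adjusted p = 0.99). The 95% intervals ran from -0.53 to 0.36 for Ebf1 and from -0.40 to 0.41 for Spib, so a 2-fold difference in either direction lies outside each of them.

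Ordered by mean ratio, the 9 genes ran from Cd79a over Fcrla, Cd22, Ms4a1, Cr2, Blk, Spib and Ebf1 to Cd79b. Of the 8 pairs of neighbours in this order, 7 differed by less than the SD of their difference over the arrays. The exception was Cd79a over Fcrla, at 0.28, 1.18 and 0.67 on the 3 arrays (mean 0.71 ± 0.45, SD, n = 3). By the distance over the 3 ratios, the genes nearest to Cd79a were Tnfaip8l2 (0.52), Gpr83 (0.54), Elovl1 (0.54), Oas1a (0.56) and Flt3l (0.56). Of the other 8 B lineage genes Fcrla was the nearest, at 1.38, and Cd79b the farthest, at 3.38. With 3 arrays such likeness describes these arrays only.

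**Figure D3:**
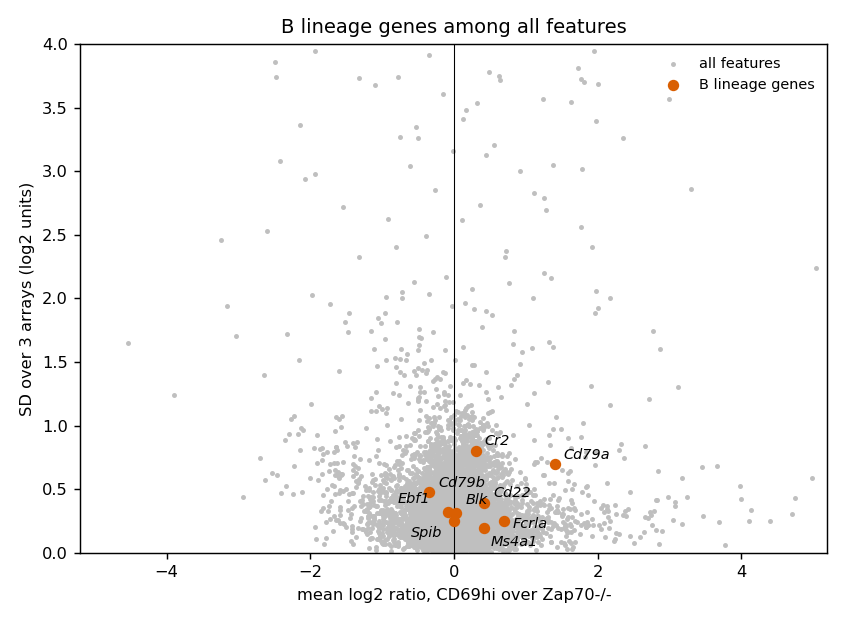
Mean log2 ratio of CD69hi over Zap70-/- RNA (horizontal axis) against the SD over 3 arrays in log2 units (vertical axis), with grey points for all 8905 features (22 lie outside the axes) and orange points for the 9 B lineage genes. Cd79a stands at 1.40 with an SD of 0.70, Cr2 has the widest spread at 0.80, and the other genes sit within the bulk of the features.

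Other genes of the same lineage were measured from a list that leaves the 9 genes out. This list and those below were chosen with earlier results of these data known. Their counts beside the shares over all features are thus a description, not a test of the lists. Of 24 measured, 10 rose in CD69hi RNA (4.13% of all features rose), 1 fell (2.81% of all features) and 13 did not pass, with a median log2 ratio of 0.78. Those that rose included Il7r, the interleukin-7 receptor of lymphoid progenitors and T cells (2.76 ± 0.22, SD, n = 3, limma adjusted p = 0.0057), the MHC class II invariant chain Cd74 (1.67 ± 0.18) and H2-Ob, a subunit of the class II regulator H2-O (1.62 ± 0.35). Other antigen-presenting cells also express Cd74 and, in part, H2-Ob. The surface genes Cd37 (1.19 ± 0.14, adjusted p = 0.020) and Cd72 (0.95 ± 0.15, adjusted p = 0.031), named after their values were seen, rose as well. Neither call held on leaving out array 1 (adjusted p = 0.071 and 0.11) or array 2 (adjusted p = 0.12 and 0.24). Ly6d fell (-2.36 ± 0.88, adjusted p = 0.033), a call lost on leaving out array 1 (adjusted p = 0.084) or array 2 (adjusted p = 0.073) and on scaling (adjusted p = 0.082). The call of H2-Ob was lost on leaving out array 2 (adjusted p = 0.067). The IgM receptor gene Fcmr, named after its values were seen, had 2.77, -0.48 and 1.69 on the arrays and did not pass (adjusted p = 0.29), except without array 2 (2.23, adjusted p = 0.037). Leaving out array 1 left 4 that rose (1.9% of all features rose), leaving out array 2 left 3 (1.07%) and leaving out array 3 left 9 (3.18%). Thymocytes or myeloid cells also express many genes of this list, 4 of the 24 stand in another list used here, and the cells behind these ratios cannot be told apart.

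Of 23 other measured genes of B cell receptor signalling, 3 rose (4.13% of all features rose) and 0 fell (2.81% of all features). The remaining 20 did not pass (limma), and the median over the 23 was 0.30. Of the 23, 12 lay above 0 on every array (24.3% of all features) and 2 below 0 on every array (22.7%). The 3 were the adaptor Sh3bp2 (2.33 ± 0.85, SD, n = 3, adjusted p = 0.032), the Src kinase Fyn (1.57 ± 0.16, adjusted p = 0.012) and the calcium-responsive factor Nfatc1 (1.57 ± 0.21, adjusted p = 0.014). Fyn and Nfatc1 also act in T cell receptor signalling. Without array 2, 0 of the 23 passed in either direction, where 1.07% of all features rose (adjusted p from 0.060 to 0.070 for these 3), and the call of Sh3bp2 was lost on leaving out array 3 (adjusted p = 0.069).

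**Figure D4:**
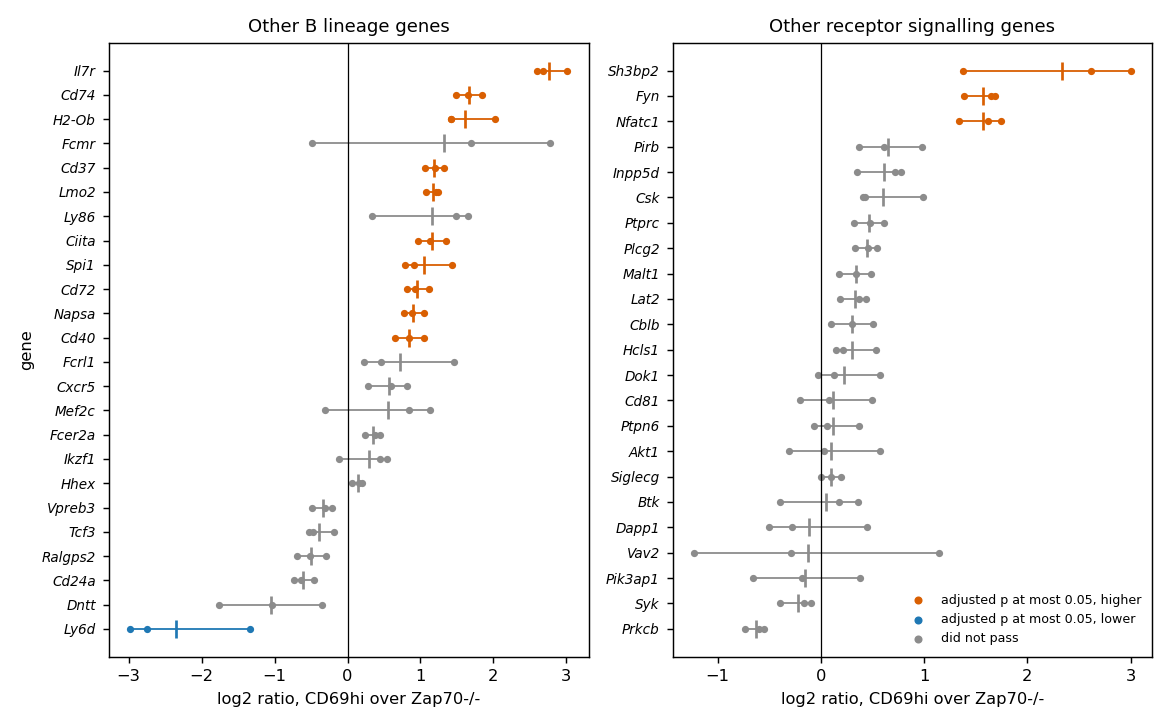
Log2 ratio of CD69hi over Zap70-/- RNA (horizontal axis) for 24 other B lineage genes (left) and 23 other receptor signalling genes (right), with a point for each array, a line over their range and a tick at the mean. Orange marks genes that passed and were higher (10 and 3), blue the 1 that was lower, and grey those that did not pass.

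Of 8 measured genes of antibody-secreting cells, 3 rose, 0 fell and 5 did not pass (median 0.25; 4.13% of all features rose and 2.81% fell). Jchain, which joins immunoglobulin polymers, was lowest on array 1, as were Cd79a and also Fyn, Nfatc1 and Irf4. Jchain had log2 ratios of 1.47, 3.88 and 2.80 (mean 2.71 ± 1.21, SD, n = 3, limma adjusted p = 0.044). Its call was lost on leaving out array 2 (adjusted p = 0.057) or array 3 (adjusted p = 0.11) and on adding a dye term (adjusted p = 0.076). Irf4 (1.84 ± 0.20) and Prdm1 (1.01 ± 0.16), factors that activated T cells also use, rose too. The call of Prdm1 was lost on leaving out array 1 (adjusted p = 0.12) or array 2 (adjusted p = 0.21) and on scaling (adjusted p = 0.0505). The number that rose was 1 without array 2. A probe that carries 2 symbols of the immunoglobulin heavy chain locus, and is therefore assigned to no gene here, had log2 ratios of 4.45, 5.04 and 4.63 (mean 4.71 ± 0.31, SD, n = 3, 26.1-fold, adjusted p = 0.0052 when every probe was fitted singly). It was looked up after the other values were seen, and the transcripts and cells behind its signal were not tested. Its 3 values lay close together, whereas those of Cd79a and Jchain did not.

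Genes listed as markers of other cells moved in the same RNA. Over all features 4.13% rose and 2.81% fell. These lists too were chosen with earlier results of these data known, so the counts describe the listed genes only. Of 16 macrophage and monocyte genes 10 rose and 0 fell (median 1.42, led by the protease Ctss at 2.83 ± 0.41, SD, n = 3), and of 11 conventional dendritic cell genes 8 rose and 0 fell (median 1.65, led by the chemokine receptor Ccr7 at 3.25 ± 0.44, which maturing thymocytes also express). Of 8 plasmacytoid dendritic cell genes 1 rose and 1 fell (median 0.30), and of 4 genes of interleukin-17-producing gamma delta T cells 0 were called in either direction (median 0.22, limma). Of 10 stromal genes 1 rose and 0 fell (median 0.22), of 10 thymic epithelial genes 0 rose and 1 fell (median -0.26), and of 6 erythroid genes 0 were called (median 0.06). Granulocyte genes had a median of -0.86, with 0 of 9 rising and 1 falling. Of 13 genes of CD4-CD8- thymocyte progenitors 4 rose and 2 fell (median 0.07), and of 11 thymocyte genes 2 rose and 1 fell (median -0.12). Whether the called genes of these lists stem from the cells they are listed for or from maturing thymocytes was not tested. Nor was the part of these cells in the ratios of the 9 B lineage genes.

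**Figure D5:**
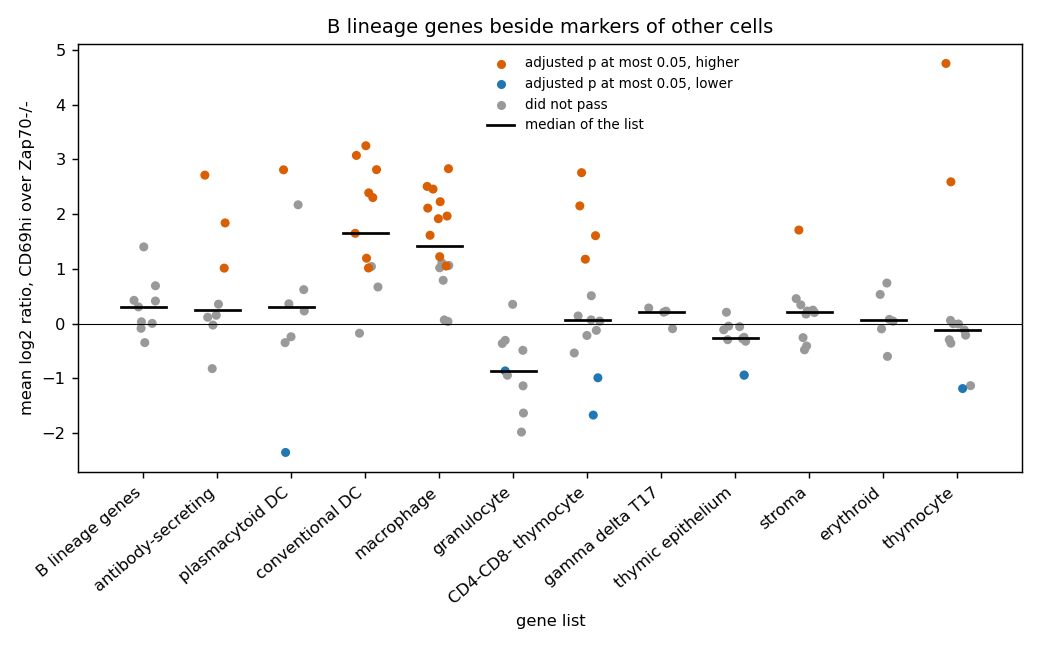
Mean log2 ratio of CD69hi over Zap70-/- RNA (vertical axis) for each measured gene of the 9 B lineage genes and of 11 marker lists (horizontal axis), with a line at each list's median. The B lineage genes have a median of 0.31 with 0 called, beside medians of 1.65 for conventional dendritic cells and 1.42 for macrophages.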

How the data were processed

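The deposited values are 1 log ratio per probe and array, taken as log2; per the labels, the dyes were swapped on array 3. The authors' background correction, spot filter and normalization: not given in the sources used here. Spot intensities were not used, and dim spots therefore stayed in. Of 9596 probes, 7486 had 1 symbol, 483 several and 1627 none in the platform annotation. The Entrez identifiers of 7395 were found in RefSeq, which changed 0 symbols. Values of arrays 1 and 2 were multiplied by -1, and probes of 1 symbol were averaged, giving 8905 features. Each was fitted with limma 3.58.1 in R 4.3.3 (lmFit, eBayes, 1 coefficient, 2 residual degrees of freedom plus 2.75 from eBayes), two-sided, with Benjamini-Hochberg adjustment over all features and 0.05 as the threshold. The fit was tested on simulated data. The number of arrays, 3, limits the precision.

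The members and gene lists were chosen with earlier results of these data known. Named were all members, the 5 genes nearest to Cd79a by Euclidean distance, Rag1, and from the other lists up to 4 called genes of largest ratio. Genes outside this rule are marked in the text as named or looked up after their values were seen. For the lists of other cells only the leading macrophage and dendritic cell gene were named. Alternatives left out each array, scaled or centred the arrays, added a dye term, used robust shrinkage, fitted probes singly, dropped extreme ratios or turned no array.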

Additional observations from a re-analysis of the deposited data

How the results depend on the processing

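No member passed in the fits without 1 array, with scaling, with centring, with a dye term or with robust shrinkage. The count of 0 became 1 with extreme ratios left out (Cd79a) and 1 with every probe fitted singly (an Ms4a1 probe); the cause was not tested. Over all features 618 were called, from 119 to 692 when an array was left out, 370 with scaling, 1076 with a dye term and 0 with no array turned (limma, with 342 at an unadjusted p up to 0.05). Of the other B lineage genes 10 rose, from 3 to 9 without an array and 0 with no array turned, and 1 fell, from 0 to 1 without an array, 0 with scaling, 2 with a dye term and 0 with no array turned. Of the receptor signalling genes 3 rose, from 0 to 3 without an array and 0 with no array turned, and 1 fell with a dye term. Members near 0 changed sign between fits, and so did Ebf2 and Siglecg, relatives of members that are described below. Over the fits without an array Cr2 ran from -0.16 to 0.55, Blk from -0.13 to 0.19, Spib from -0.13 to 0.11, Ebf1 from -0.27 to 0.033 and Ebf2 from -0.14 to 0.29. With a dye term the ratio was -0.044 for Blk, -0.012 for Spib and 0.0057 for Ebf1, and with scaling -0.027 for Spib. Single probes gave -0.13 for Ms4a1, -0.052 for Blk and -0.077 for Siglecg.

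Leaving every array unturned sets array 3 against the others by construction, and the ratios then were -0.47 for Cd79a, -0.28 for Ms4a1, -0.22 for Blk, -0.043 for Spib, 0.27 for Ebf1 and -0.20 for Fcrla. Among the other genes named they were -0.98 for Il7r, 1.46 for Ly6d, -0.43 for Cd74, -0.67 for H2-Ob, -0.34 for Cd72, -0.31 for Cd37, -0.20 for Fcmr, -0.33 for Sh3bp2, -0.45 for Fyn, -0.40 for Nfatc1, -0.85 for Jchain, -0.47 for Irf4, -0.45 for Prdm1, -1.30 for Ms4a4b, -0.38 for Ms4a6c, -0.52 for Spi1, 0.67 for Rag1, -1.23 for Ctss, -0.81 for Ccr7, -0.029 for Siglecg, -0.084 for Ebf3, -0.44 for Tnfaip8l2, -0.31 for Gpr83, -0.16 for Elovl1, -0.34 for Oas1a and -0.23 for Flt3l, none of them called. No probe with several symbols carried a member's symbol, so that alternative gave no value. Each ratio within an array already pairs both RNAs; beyond that no paired analysis was possible because each array gives 1 ratio. Each fit without an array has fewer degrees of freedom. No intensities were used, so signal over background is unknown for every probe, and 3 arrays left limma's 95% interval of each member between 0.74 and 1.69 wide on the log2 scale.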

Other observations

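Of 14 relatives of the B lineage genes, looked up after the first results, 3 rose, 0 fell and 11 did not pass over the 3 arrays (limma; 4.13% of all features rose and 2.81% fell). Beside Ms4a4b, those that rose were Ms4a6c (1.18 ± 0.20, SD, n = 3, adjusted p = 0.024) and Spi1, the ETS factor PU.1 related to Spib and also used in myeloid cells (1.05 ± 0.34, adjusted p = 0.041). The call of Ms4a6c was lost on leaving out array 1 (adjusted p = 0.070) or array 2 (adjusted p = 0.15). That of Spi1 was lost on leaving out array 1, 2 or 3 (adjusted p = 0.13, 0.25 and 0.056), once the arrays were scaled (adjusted p = 0.0505) and once a dye term was added (adjusted p = 0.051). Fcrl1, a receptor of B cells related to Fcrla, had log2 ratios of 0.46, 0.22 and 1.46 on arrays 1 to 3 (limma adjusted p = 0.22), and Iglv1, an immunoglobulin lambda variable gene, had 0.32, 0.49 and 1.47 (adjusted p = 0.18). Both lay above 0 on every array, whereas Cr2 lay below 0 on arrays 1 and 2. All 3 genes were highest on array 3, as were Cd37, Irf4 and Ccr7. Array 3 alone had CD69hi RNA in Cy5, so with a dye term only arrays 1 and 2 inform the spread. In that fit the ratios were 0.90 for Fcrl1 and 0.94 for Iglv1. Siglecg, an inhibitory lectin related to Cd22, had a mean of 0.10 ± 0.10 (SD, n = 3, adjusted p = 0.71), and its 2 probes gave 0.27 and -0.08. The EBF family genes Ebf2 (0.14 ± 0.48, adjusted p = 0.75) and Ebf3 (0.08 ± 0.10, adjusted p = 0.75) and the complement receptor-like gene Cr1l (0.12 ± 0.18, adjusted p = 0.65) did not pass either. Among those that did not pass, Ms4a6d (0.72, adjusted p = 0.10), Ms4a8a (0.62, adjusted p = 0.061), Spic (0.60, adjusted p = 0.076) and Siglec1 (0.47, adjusted p = 0.15) lay above 0 on every array, and Fcrls had a mean of 0.13 (adjusted p = 0.68). Beside the 26.1-fold ratio of the heavy chain probe and the 6.56-fold ratio of Jchain, the receptor chain Cd79a stood at 2.64-fold and Cd79b at 0.786-fold. Each of these 4 values rests on 1 probe, and the cells behind them were not tested.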
